A study of Mus musculus with 12 samples.

Results

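The spliceosome is the machine that removes introns from pre-mRNA. Followed here in mouse CD8+ T cells were 68 genes from the families of its core proteins and of the RNA-binding proteins that steer it. Members were taken by symbol: every row of the count table of 13780 genes whose symbol begins with Srsf, Hnrnp, Sf3a, Sf3b, Snrp, Lsm followed by a digit, or U2af, with symbols that hold -ps left out. That pattern matched 69 rows and left 68 members, all of which passed the filter on low counts. A choice by symbol also takes in the processed pseudogene Snrpert and relatives that act elsewhere, such as Lsm1, Lsm10 and Lsm14a. Spleen CD8+ T cells of wild-type C57BL/6J mice, 8 to 12 weeks old and purified by positive magnetic selection, were profiled by mRNA sequencing in 3 groups of 4 libraries. Naïve cells from 4 donors were lysed straight after isolation, without activation or culture. Media cells received beads carrying anti-CD3 and anti-CD28 plus 10 U/ml of IL-2 over 72 h in plain media, and lactate cells received the same with 40 mM sodium lactate added, with 5 donors supplying these 8 activated libraries. The libraries are of bulk RNA from cells kept ex vivo, and the control was plain media rather than sodium chloride, so the lactate anion, the added sodium and the higher osmolality cannot be told apart.

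Introns are recognised and removed by small nuclear ribonucleoproteins (snRNPs), each built of an RNA and a set of proteins. A ring of 7 Sm proteins clasps the RNA of most of these particles, a related ring of LSm proteins clasps the U6 RNA, and further proteins are particular to the U1 or U2 particle. U2AF binds the 3′ end of the intron and recruits the U2 particle, whose SF3A and SF3B subunits hold the branch point. SR proteins bind exons and mostly promote splice site choice, while hnRNP proteins coat the transcript and often oppose it. T cells are known to change their splicing on activation, and the exon choice in the Ptprc (CD45) transcript, set in part by hnRNP LL, is the classic example.

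Sequencing depth was similar between groups, with 14726904 to 21478137 counted reads per library. Levels are given as CPM, the counts relative to a library total scaled by TMM, and levels of different genes are compared only as TPM, which also divides by gene length. Calls of higher or lower rest on edgeR's quasi-likelihood F-test with Benjamini-Hochberg adjustment over all 13767 genes tested, at a threshold of 0.01, and every adjusted p below comes from it unless another fit is named. CD8 T cell markers were present in every library, with a summed level of 5 genes of at least 1776 CPM. The naïve libraries also held markers of other cells: 6 B cell genes summed to 2144 to 4909 CPM, 6 myeloid genes to 480.2 to 1454 CPM and 2 of 3 erythroid genes, the third being below the filter, to 42.4 to 1736 CPM. In the 8 activated libraries the myeloid sum was at most 0.982 CPM and the erythroid sum at most 0.820 CPM. Between the activated groups, the B cell sum was 427.6 to 695 CPM in media and 248 to 329.9 CPM with lactate, without overlap, and most of it was Ighm, at 417 to 679 CPM and 240.1 to 323 CPM. Pax5, the transcription factor that defines B cells, was at most 1.80 CPM in media and 0.461 CPM with lactate. The sum of 5 CD8 T cell genes was 2608 to 3230 CPM in media and 2032 to 2517 CPM with lactate, again without overlap. The sum of 3 CD4 T cell genes was 44.6 to 55.8 CPM and 76.0 to 89.4 CPM, mostly Zbtb7b, while Cd4 itself was at most 0.990 CPM in any activated library. The 6 genes of dividing cells summed to 3014 to 3840 CPM in media and 2579 to 3151 CPM with lactate, against 263 to 648 CPM in naïve cells. These sums overlap between the activated groups but their genes did not all: Pcna (237 to 279 CPM in media, 345 to 385 CPM with lactate), Mcm2 (163 to 237 and 247 to 356 CPM) and Ccnb1 (82.3 to 92.6 and 107.5 to 132 CPM) were higher with lactate without overlap, Mki67 (1094 to 1469 and 708 to 1011 CPM) was lower without overlap, and Top2a and Cdk1 overlapped. The part of these differences in the results below was not tested. In bulk libraries, more RNA per cell and more cells that express a gene cannot be told apart.

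The bases before the start site are shown for 3 members, the gene with the largest rise with lactate (Hnrnpab) and the only members called lower (Sf3b1 and Hnrnpul1). The promoters of genes that differed in opposite directions can so be read side by side, and their part in the differences was not tested. Sequences are 250 bases each from RefSeq (GRCm38.p6), 5′ to 3′ on the strand of the gene, and capitals mark CCAAT or its reverse complement ATTGG, the box bound by NF-Y. The Hnrnpab stretch is chr11:51606882-51607131, the Sf3b1 stretch chr1:55027479-55027728 and the Hnrnpul1 stretch chr7:25754760-25755009, all on the minus strand.
Hnrnpab: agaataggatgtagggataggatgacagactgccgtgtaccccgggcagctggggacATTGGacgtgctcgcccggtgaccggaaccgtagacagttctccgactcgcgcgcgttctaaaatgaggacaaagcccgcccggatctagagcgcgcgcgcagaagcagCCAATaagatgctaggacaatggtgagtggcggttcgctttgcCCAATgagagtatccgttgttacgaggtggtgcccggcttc
Sf3b1: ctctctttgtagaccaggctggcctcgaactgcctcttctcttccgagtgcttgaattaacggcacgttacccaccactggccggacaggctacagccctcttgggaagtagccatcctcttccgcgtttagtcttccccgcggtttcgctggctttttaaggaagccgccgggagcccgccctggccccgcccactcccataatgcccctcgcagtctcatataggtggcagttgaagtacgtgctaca
Hnrnpul1: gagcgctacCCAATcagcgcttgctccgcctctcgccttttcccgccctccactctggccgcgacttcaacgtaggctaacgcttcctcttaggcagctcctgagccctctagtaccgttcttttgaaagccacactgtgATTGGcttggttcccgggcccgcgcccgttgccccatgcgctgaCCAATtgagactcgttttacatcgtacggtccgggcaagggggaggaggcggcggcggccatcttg
The Hnrnpab and Hnrnpul1 stretches each hold 3 matches and the Sf3b1 stretch holds 0. The genes themselves span chr11:51600100-51606847 (Hnrnpab), chr1:54985169-55027481 (Sf3b1) and chr7:25721165-25754757 (Hnrnpul1) in the GENCODE annotation of GRCm38. Windows of 250 bases before to 50 bases after the start were held for 57 of the 68 members and searched on both strands for 4 sequences, none of which contains another. CCAAT was in the window of 28 of 57 members (49.1%), of 43.3% of the tested genes with a window and in 37.4% of all 32851 windows. The ETS site CCGGAAGT was in 10 of 57 members (17.5%), against 9.35% of tested genes and 3.89% of all windows. The E-box CACGTG, bound by MYC and related factors, was in 6 of 57 (10.5%), against 11.7% of tested genes and 7.15% of all windows, and the palindromic NRF1 site was in 1 (1.75%), against 2.39% and 0.971%. Among members called higher with lactate, CCAAT was in 9 of 23 (39.1%), CACGTG in 3 of 23 (13%), CCGGAAGT in 2 of 23 (8.70%) and the NRF1 site in 0 of 23. Among the other members they were in 19 of 34 (55.9%), 3 of 34 (8.82%), 8 of 34 (23.5%) and 1 of 34 (2.94%). These shares are a description of letters in a window, with no test.

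The first question was how these genes differed between cells activated with lactate and cells activated in media. With lactate, 30 of 68 members (44.1%) were higher and 2 (2.94%) were lower, while 13.9% of all tested genes were called higher and 11.1% lower. The other 36 did not pass the threshold. The median log2 fold change of the members was 0.39, a 1.31-fold difference, against -0.0016 over all tested genes. A positive value was found for 54 members and a negative one for 14. Differences were moderate in size: 20 of the 30 were at least 1.5-fold and 2, Hnrnpab and Snrpd3, at least 2-fold. The 4 lactate libraries were all above the 4 media libraries for 43 members (63.2%), a pattern seen in 23.2% of all tested genes, and all below for 3 members (Sf3b1, Hnrnpul1 and Lsm14a), a pattern seen in 21.5%. The members took 1.45% to 1.56% of all counts in media and 1.73% to 1.87% with lactate, against 1.29% to 1.43% in naïve cells, so the 3 ranges did not overlap.

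In 3 donors, 1 media library could be set against 1 lactate library of the same donor, as read from the description tags. Of the 68 members, 49 (72.1%) were higher with lactate in all 3 donor pairs, compared with 33.4% of all tested genes, and 7 (10.3%) were lower in all 3, compared with 32.8%. Each of the 30 members called higher was higher in all 3 pairs. The median difference over members was 0.37, 0.41 and 0.34 on the log2 scale in the 3 pairs. Within the low run of library numbers (3 media and 2 lactate libraries) the median difference was 0.38, and within the high run (1 media and 2 lactate libraries) it was also 0.38. With the donor as a block in a fit of the 8 activated libraries, an alternative chosen after the data were seen, 32 members were higher and 1 lower. In that fit 3769 of all 13767 tested genes were called, and 2030 (14.7% of all tested) were higher. The same block in the fit of all 12 libraries left 18 members higher. Of all 13767 tested genes, 992 were called with that block, and 625 (4.54% of all tested) were higher. Both members that were lower in the unblocked fit missed the threshold there.

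**Figure D1:**
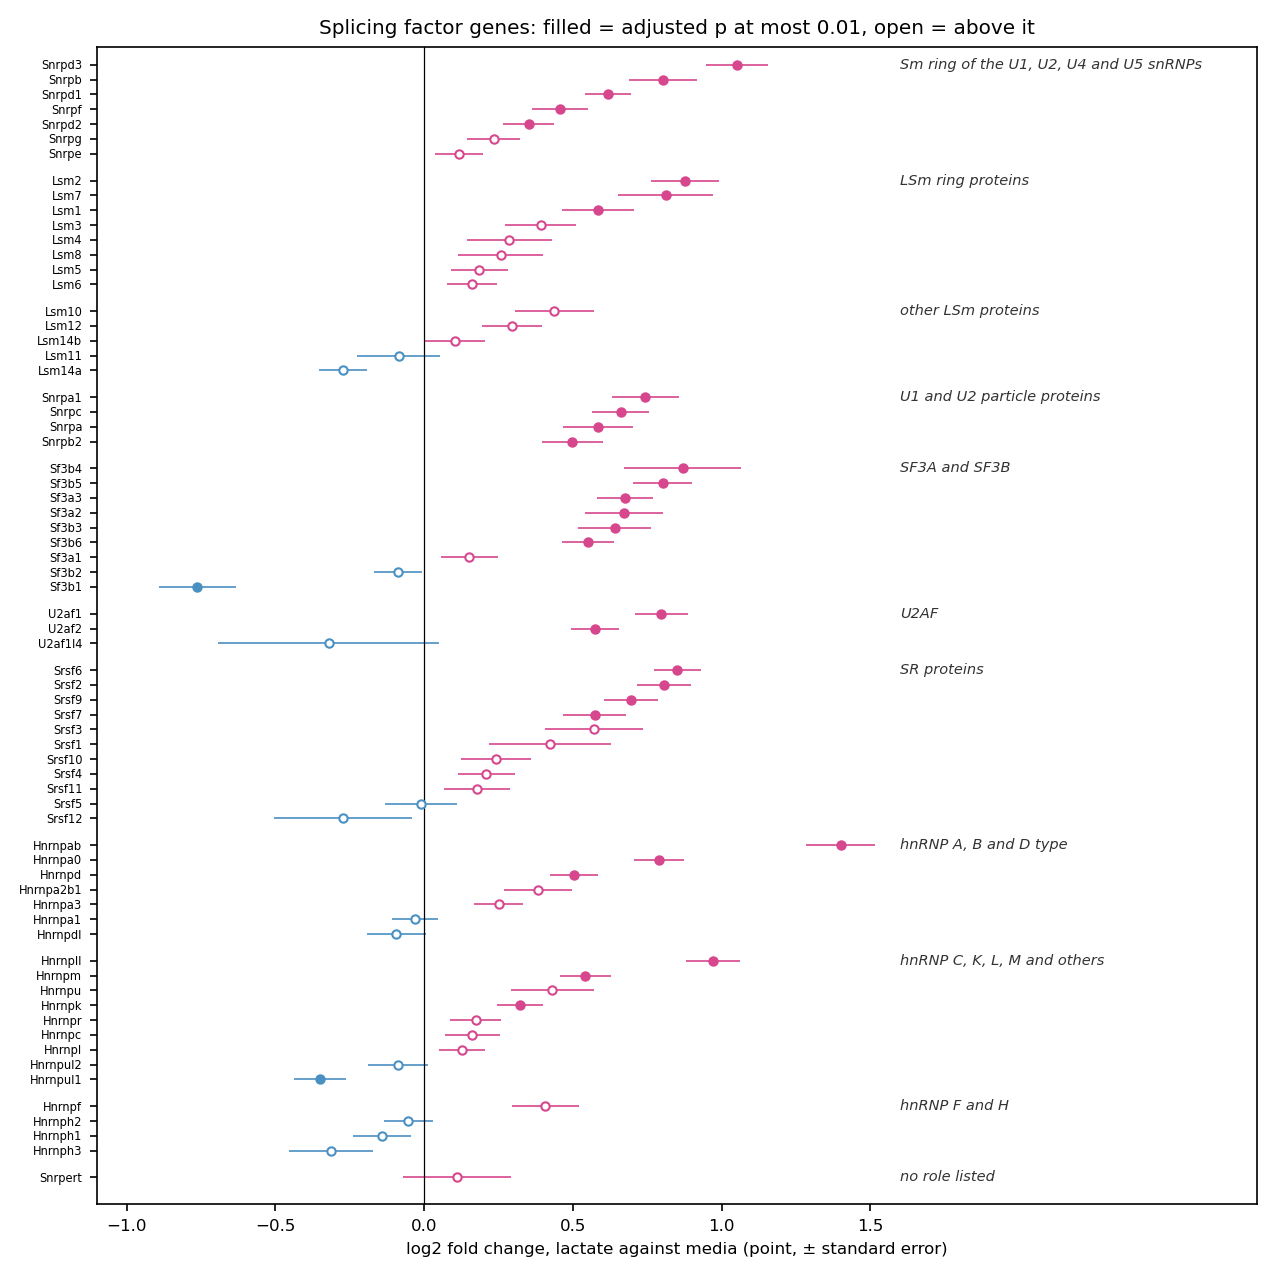
Log2 fold change of each of the 68 members, lactate against media, with the standard error as a bar, grouped by role. Filled points passed an adjusted p of 0.01 and open points did not, pink is above 0 and blue below. Most points lie right of 0 (54 of 68), with Hnrnpab farthest right at 1.40 and Sf3b1 farthest left at -0.76.

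The 4 members grouped as U1 and U2 particle proteins rose with lactate, and so did most genes of the Sm ring, while Snrnp70, the U1-70K protein and no member, was not called (log2 fold change 0.15, adjusted p = 0.258). Of the 7 Sm genes, 5 were higher with lactate (Snrpd3, Snrpb, Snrpd1, Snrpf and Snrpd2) with a median log2 fold change of 0.46. All 4 U1 and U2 genes (Snrpa1, Snrpc, Snrpa and Snrpb2) were higher, with a median of 0.62. The donor block over 12 libraries left 3 Sm genes and 2 U1 or U2 genes called. In the Sm, U1 and U2, LSm ring, U2AF, SR and hnRNP A, B and D groups, 0 genes were lower by edgeR, and 0 were lower by DESeq2 or at an unadjusted p of 0.05. Snrpd3, which encodes SmD3, was at 75.4, 61.1, 71.8 and 69.7 CPM in the 4 media libraries and at 151, 135, 145 and 145 CPM in the 4 lactate libraries. Every lactate library was above every media library by a wide margin (difference of 1.05 on the log2 scale, SE 0.11, adjusted p = 5.63e-05). Snrpb, which encodes SmB, was at 159, 112, 152 and 156 CPM in media and 272, 226, 260.2 and 253 CPM with lactate. The difference over all libraries was 0.80 on the log2 scale (SE 0.11, adjusted p = 0.000256). Media replicate 2 was the lowest library, and the groups were apart without it as well (0.70, adjusted p = 0.000327). For Snrpd1, which encodes SmD1, the values were 79.9, 74.1, 82.4 and 82.1 CPM in media and 124, 123, 122 and 120.4 CPM with lactate, a difference of 0.62 ± 0.08 (log2, SE) with an adjusted p of 0.00013. The lactate libraries differed from each other by little for this gene, with an SD of 1.37 CPM around a mean of 122 CPM (n = 4). The remaining Sm genes, Snrpg and Snrpe, were not called, with log2 fold changes of 0.23 (adjusted p = 0.0538) and 0.12 (adjusted p = 0.281). Of the U1 and U2 genes, Snrpa1, for the U2 A′ protein, was at 66.6 ± 8.65 CPM in media and 112 ± 4.2 CPM with lactate (mean ± SD, n = 4; difference of 0.74 on the log2 scale, SE 0.11, adjusted p = 0.000345). Snrpc, for the U1 C protein that helps the U1 particle grip the 5′ splice site, was at 45.4 ± 5.07 and 71.8 ± 4.56 CPM (difference of 0.66 on the log2 scale, SE 0.10, adjusted p = 0.000289). Snrpa, for the U1 A protein, was at 92.6 ± 12 and 139 ± 7.43 CPM (difference of 0.59 on the log2 scale, SE 0.12, adjusted p = 0.00203), and 11% of its exon bases overlap a gene on the opposite strand. Snrpa was no longer called with the donor block in the fit of 12 libraries (adjusted p = 0.036). Snrpert is annotated as a processed pseudogene of 279 bases on chromosome 2 whose whole sequence matches another gene. It stood at 3.78 ± 0.508 CPM in media and 4.08 ± 0.0453 CPM with lactate, and it was counted without a role (log2 fold change 0.11, adjusted p = 0.666).

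The LSm genes shared the direction but fewer of them passed. All 8 genes of the LSm rings had positive values, 3 were called higher (Lsm2, Lsm7 and Lsm1), and 7 of 8 showed no overlap between lactate and media. Lsm2, part of the ring on U6 RNA and of the ring that acts in mRNA decay, was at 46.8, 34.9, 44.5 and 37.2 CPM in media and 81.8, 76.3, 70.4 and 71.6 CPM with lactate. Even the lowest lactate library was far above the highest media library (difference of 0.88 on the log2 scale, SE 0.11, adjusted p = 0.000159). Lsm7, a subunit of both rings and a low gene at 9.87 ± 1.61 CPM in media, was at 17.3 ± 2.73 CPM with lactate (difference of 0.81 on the log2 scale, SE 0.16, adjusted p = 0.00175). Lsm1, the subunit that sets the cytoplasmic decay ring apart, was at 25.0 ± 2.07 and 37.5 ± 2.25 CPM (difference of 0.58 on the log2 scale, SE 0.12, adjusted p = 0.00252). Its call was lost without lactate replicate 4 (adjusted p = 0.01005) and with the donor block over 12 libraries (adjusted p = 0.044). The 5 other LSm genes held no call by edgeR, against 1 higher and 1 lower by DESeq2 and 2 higher and 1 lower at an unadjusted p of 0.05, and the largest difference among them was for Lsm10, a protein of the U7 particle that matures histone mRNA (log2 fold change 0.44, SE 0.13, adjusted p = 0.0188). Lsm14a, a component of cytoplasmic RNA granules, had all lactate libraries below all media libraries without passing the threshold (log2 fold change -0.27, adjusted p = 0.0167).

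**Figure D2:**
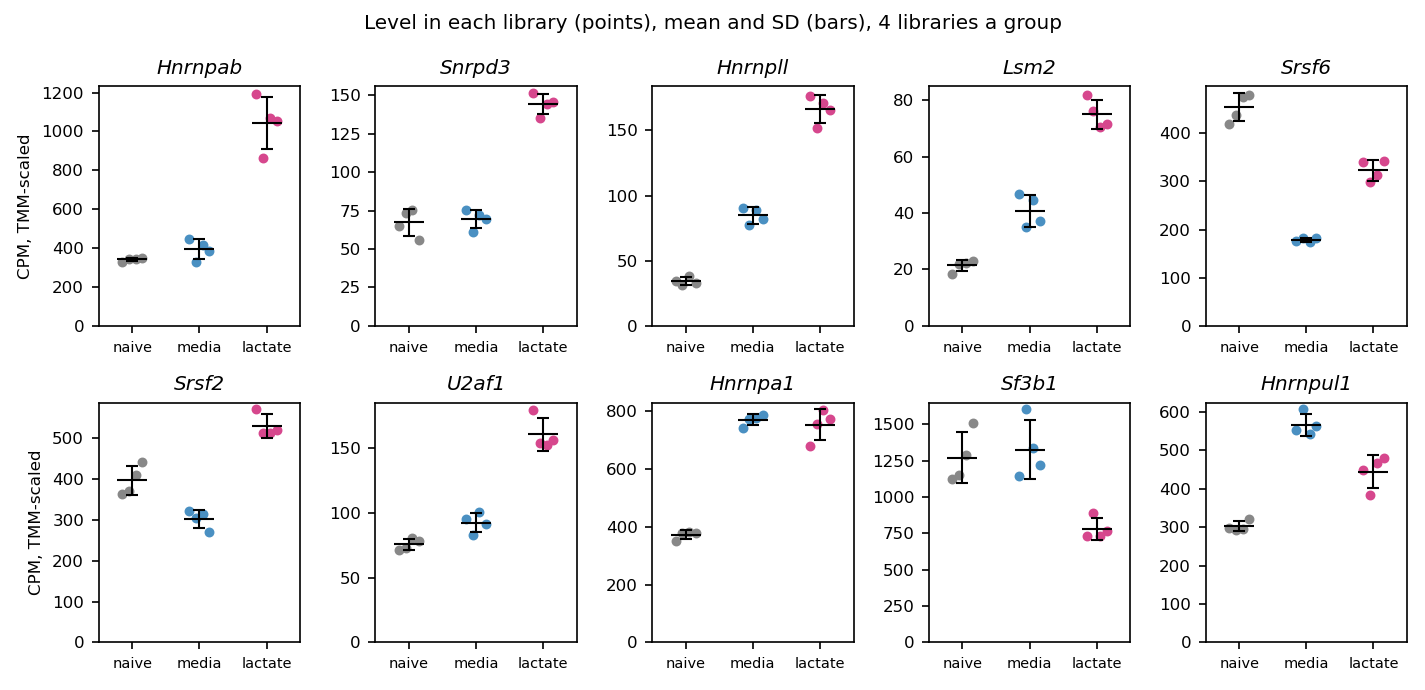
CPM scaled by TMM of 10 members in each of the 12 libraries (points), with the mean and SD of each group of 4 (bars); each vertical axis starts at 0. Lactate libraries stand above media libraries for 7 of the genes, overlap them for Hnrnpa1, and stand below them for Sf3b1 and Hnrnpul1.

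Genes for SF3A and SF3B, which clamp the branch point in the U2 particle, split within the complex. Of the 9 genes, 6 were higher (Sf3b4, Sf3b5, Sf3a3, Sf3a2, Sf3b3 and Sf3b6), 1 was lower (Sf3b1) and 2 were not called, while the donor block over 12 libraries left 1 higher. Sf3b1, the large scaffold of the complex, was at 1142, 1605, 1335 and 1218 CPM in the 4 media libraries and at 731, 893, 734 and 765 CPM in the 4 lactate libraries. All lactate libraries were below all media libraries and below all naïve libraries, which held 1124, 1155, 1289 and 1511 CPM. The log2 fold change against media was -0.76 (SE 0.13, adjusted p = 0.000733), which is 0.589 of the media level, and the 3 donor pairs gave -0.67, -0.64 and -0.58. The decrease was called with the donor block over the activated libraries (-0.62, adjusted p = 0.000817), and was not called with the donor block over 12 libraries (-0.63, adjusted p = 0.0124) or after the counts were corrected for GC content and length (-0.48, adjusted p = 0.0135). Sf3b5, a small subunit of the same complex, went the other way, from 66.1, 47.9, 58.5 and 59.8 CPM in media to 98.6, 109.7, 97.3 and 99.4 CPM with lactate (difference of 0.80 on the log2 scale, SE 0.10, adjusted p = 0.000126). Sf3b4, which contacts the transcript near the branch point, was at 22.3, 18.9, 18.7 and 23.6 CPM in media and 47.9, 24.3, 39.9 and 40.5 CPM with lactate. Lactate replicate 2 lay just above the highest media library and well below the other lactate libraries (difference of 0.87 on the log2 scale, SE 0.20, adjusted p = 0.00426). Leaving out any one of media replicates 2 and 3 and lactate replicates 1, 3 and 4 ended this call (adjusted p = 0.0136 to 0.0167), as did the donor block over 12 libraries (adjusted p = 0.0356), and 66.6% of the transcript of Sf3b4 is nearly identical to another annotated gene.

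Both U2AF subunits rose with lactate. U2af1, the small subunit that reads the AG at the end of the intron, was at 95.0, 82.4, 100.3 and 91.5 CPM in media and 179, 154, 152 and 156 CPM with lactate. The groups were well apart (difference of 0.80 on the log2 scale, SE 0.09, adjusted p = 8.01e-05), although 68.8% of the transcript of U2af1 has a near-identical copy elsewhere, so part of its reads may not have been counted as unique. U2af2, the large subunit that binds the polypyrimidine tract, was at 176, 157, 173 and 165 CPM in media and 273, 229, 241 and 257 CPM with lactate (difference of 0.58 on the log2 scale, SE 0.08, adjusted p = 0.000231). U2af1l4, a paralogue, was barely detected at 0.619 ± 0.115 CPM in media and 0.500 ± 0.193 CPM with lactate, and 65.6% of its exon bases overlap another gene on the same strand.

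Among the SR proteins, 4 of 11 were higher with lactate (Srsf6, Srsf2, Srsf9 and Srsf7) and the median log2 fold change was 0.42. The donor block over 12 libraries left 3, without Srsf7 (adjusted p = 0.0165). Srsf6 was at 177, 182, 175 and 183 CPM in media and 340.5, 298, 312 and 342 CPM with lactate. Both groups were tight and did not overlap (difference of 0.85 on the log2 scale, SE 0.08, adjusted p = 5.56e-05). Srsf2, also called SC35 and a classic marker of nuclear speckles, was at 321, 306, 314 and 271 CPM in media and 572, 513, 512 and 519 CPM with lactate (difference of 0.81 on the log2 scale, SE 0.09, adjusted p = 8.5e-05). Its lowest lactate library was far above its highest media library. Mettl23 overlaps 25.3% of the exon bases of Srsf2 on the opposite strand, and its own log2 fold change was -0.18 (adjusted p = 0.267). Srsf9 was at 56.4 ± 5.19 CPM in media and 91.4 ± 2.71 CPM with lactate (difference of 0.70 on the log2 scale, SE 0.09, adjusted p = 0.000148). Srsf1, the founding SR protein, was at 544, 577, 521 and 265 CPM in media and 760.4, 691, 554 and 552 CPM with lactate. Media replicate 4 was less than the other media libraries by a wide margin, and 2 of the lactate libraries lay within the media range. Media replicate 4 was the only media library of the high run, and those 2 lactate libraries were the 2 of that run. Within each run the groups did not overlap. Srsf1 was not called (log2 fold change 0.42, SE 0.20, adjusted p = 0.119), its value was 0.22 without media replicate 4 (adjusted p = 0.198), and it was called with the donor block over the activated libraries (0.66, adjusted p = 0.00462) but not over 12 libraries (0.65, adjusted p = 0.0188). Srsf3 stood at 156, 162, 183 and 246 CPM in media and 251, 244, 305 and 310.2 CPM with lactate, where media replicate 4 alone reached the lactate range. It missed the threshold (log2 fold change 0.57, SE 0.16, adjusted p = 0.0154), was called without media replicate 4 (0.73, adjusted p = 0.00311) and was called with the donor block over the activated libraries (0.49, adjusted p = 0.00544) but not over 12 libraries (0.48, adjusted p = 0.0713). Srsf5 was at 316 ± 40.5 CPM in media and 314 ± 32.8 CPM with lactate, a log2 fold change of -0.01 (SE 0.12, adjusted p = 0.973).

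The hnRNP genes held both the strongest rise and several members without a detectable difference. Hnrnpab, an RNA-binding protein of the A, B and D type, was at 449, 331, 417 and 386 CPM in the media libraries and at 1191, 865, 1069.5 and 1052 CPM in the lactate libraries. Its lowest lactate library was far above its highest media library, and the difference was 2.64-fold (difference of 1.40 on the log2 scale, SE 0.12, adjusted p = 4.9e-05). The donor pairs gave 1.45, 1.41 and 1.05 on the log2 scale, and the value ran from 1.22 to 1.48 over 29 alternative settings, with a call in each. Phykpl overlaps 29.1% of the exon bases of Hnrnpab on the opposite strand, and stood at 12.5 CPM in media and 14.4 CPM with lactate. Hnrnpa0 was at 288, 269.6, 287 and 303 CPM in media and 513, 462, 505 and 504 CPM with lactate (difference of 0.79 on the log2 scale, SE 0.09, adjusted p = 6.77e-05). Hnrnpd, which encodes AUF1, a protein that binds AU-rich elements and acts in mRNA decay, was at 273 ± 10.5 and 387 ± 19.6 CPM (difference of 0.50 on the log2 scale, SE 0.08, adjusted p = 0.000492). Hnrnpa1, a well-studied antagonist of SR proteins, was at 743, 772, 775 and 787 CPM in media and 679, 755, 805 and 773 CPM with lactate, where the groups overlapped. Its log2 fold change was -0.03 (SE 0.08, adjusted p = 0.787), and 58.5% of its transcript is nearly identical to 8 pseudogenes.

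Of the 9 genes of the hnRNP C, K, L, M and related types, 3 were higher (Hnrnpll, Hnrnpm and Hnrnpk) and 1 was lower (Hnrnpul1). Hnrnpll, which steers the skipping of the variable exons of CD45, was at 90.6, 77.2, 89.2 and 82.1 CPM in media and 176, 152, 171 and 166 CPM with lactate. The lactate libraries were 1.96-fold higher on average and did not overlap with media (difference of 0.97 on the log2 scale, SE 0.09, adjusted p = 5.56e-05). Hnrnpm, a regulator of exon choice, was at 255 ± 17.3 CPM in media and 371 ± 26.2 CPM with lactate (difference of 0.54 on the log2 scale, SE 0.09, adjusted p = 0.000464), and 14.7% of its exon bases overlap March2 on the same strand. Hnrnpul1, a relative of hnRNP U, was at 552, 609, 543 and 563 CPM in media and 449, 383, 466 and 479.6 CPM with lactate. Lactate replicate 2 was the lowest and all lactate libraries were below all media libraries (log2 fold change -0.35, SE 0.09, adjusted p = 0.00707). This call was lost when any media library, naïve replicate 1, or lactate replicate 1, 2 or 3 was left out (adjusted p = 0.0108 to 0.0221) and with the donor block over the activated libraries (-0.33, adjusted p = 0.0209) or over 12 libraries (-0.34, adjusted p = 0.0363). Hnrnpu, the scaffold attachment factor, and Hnrnpa2b1 were not called in the fit of 12 libraries (log2 fold changes of 0.43 and 0.38, adjusted p = 0.0266 and 0.0175) and were called with the donor block over the activated libraries (0.57 and 0.45, adjusted p = 0.00331 and 0.00367) but not over 12 libraries (adjusted p = 0.0153 and 0.0637). Hnrnpk and Snrpd2 went the other way, from adjusted p = 0.00562 and 0.0063 to adjusted p = 0.0195 and 0.0296 with the block over the activated libraries and 0.0504 and 0.058 with the block over 12 libraries. The hnRNP F and H genes, which bind G-rich stretches, held no call among 4 by edgeR, against 1 higher by DESeq2 and 1 in each direction at an unadjusted p of 0.05, and the largest difference was for Hnrnpf (log2 fold change 0.41, SE 0.11, adjusted p = 0.0123).

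Expressed per length, the order of the members changed between conditions. The length was the union of all annotated exons of a gene, which can be far longer than 1 transcript. For Hnrnpa2b1 it was 6584 bases, against 1728 for the longest coding transcript, and for Hnrnpa1 3153 against 1918. The order of different genes and the sums below depend on that length, and other lengths were not tried. On this scale Hnrnpa1 had the highest value in media, at 846 ± 19.2 TPM (mean ± SD, n = 4). It was followed by Hnrnpa2b1 at 614 ± 63.3, Hnrnpab at 494 ± 69.6, Lsm4 at 479.6 ± 61.8 and Sf3b1 at 404 ± 66.1 TPM. Lsm4 and Hnrnpab differed by less than their SDs. With lactate, Hnrnpab was first at 1185 ± 172 TPM, ahead of Hnrnpa1 at 752 ± 28.6 and Hnrnpa2b1 at 729 ± 70.1 TPM, which were within an SD of each other. Sf3b1 fell from rank 5 in media to rank 19 with lactate, at 217 ± 25.7 TPM. Within the SF3 genes this narrowed the range: in media they spanned 33.4 TPM (Sf3b4) to 404 TPM (Sf3b1), and with lactate 55.7 TPM (Sf3b4) to 217 TPM (Sf3b1), so that the sum over the 9 genes was 1170.0 TPM in media and 1156 TPM with lactate. The sum over the 7 Sm genes was 1136 TPM in media and 1477 TPM with lactate, and the sum over all members was 11345 and 13499 TPM.

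The second question was what activation itself did to these genes, with naïve cells as the reference. In media, 32 of 68 members (47.1%) were higher than in naïve cells and 10 (14.7%) were lower, while 28.5% of all tested genes were called higher and 29% lower. The median log2 fold change of the members was 0.28, against -0.03 over all tested genes. It was 0.18 without naïve replicate 2. The naïve libraries carried the B, myeloid and erythroid markers given above, which were near 0 or far lower after activation, and their part in these differences was not tested. The roles differed in their counts: 5 of 7 Sm genes, 6 of 8 LSm ring genes and all 4 U1 and U2 genes were higher, and no gene of these 3 groups was lower at an unadjusted p of 0.05 either. Snrpd1 rose most among members at 5 CPM or more, from 25.4, 26.7, 26.9 and 30.5 CPM in naïve cells to the media values above (difference of 1.54 on the log2 scale, SE 0.08, adjusted p = 1.15e-08). Snrpa was at 36.9 ± 5.02 CPM in naïve cells (difference of 1.33 on the log2 scale, SE 0.12, adjusted p = 9.52e-07), and Hnrnpll at 34.3, 31.2, 38.3 and 32.5 CPM (difference of 1.31 on the log2 scale, SE 0.09, adjusted p = 1.15e-07). Hnrnpa1 was 2.07-fold higher in media, from 349.5, 379.9, 383 and 377 CPM (difference of 1.05 on the log2 scale, SE 0.08, adjusted p = 1.89e-07). Hnrnpul1, lower with lactate than in media, was higher in media than in naïve cells, where it was at 299, 293, 296 and 322 CPM (difference of 0.91 on the log2 scale, SE 0.09, adjusted p = 1.77e-06).

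SR genes were the group with the most falls on activation. In media, 6 of 11 were lower than in naïve cells (Srsf6, Srsf5, Srsf3, Srsf7, Srsf11 and Srsf2) and 3 were higher (Srsf1, Srsf9 and Srsf4). After the counts were corrected for GC content and length, 6 rather than 10 of all members were lower, and Srsf2 was no longer among them (-0.21, adjusted p = 0.167). The median of all tested genes was 0.0996 with that correction, against -0.03 without it, and 4475 of 7931 called genes were higher. Srsf6 was at 420.1, 438, 476 and 480.0 CPM in the 4 naïve libraries, above every media and every lactate library (difference of -1.34 on the log2 scale, SE 0.08, adjusted p = 3.29e-08). Srsf5 was at 576, 594, 656 and 494 CPM in naïve cells (difference of -0.88 on the log2 scale, SE 0.12, adjusted p = 3.61e-05). Srsf3 was at 303, 327, 343 and 229.8 CPM, and naïve replicate 4 was within the media range (difference of -0.69 on the log2 scale, SE 0.16, adjusted p = 0.00242). Srsf1 went up instead, from 266, 307, 314 and 276 CPM, and media replicate 4 was again the exception (log2 fold change 0.71, SE 0.20, adjusted p = 0.0078). Naïve replicate 4 and media replicate 4 were the only naïve and media libraries of the high run. Between these, Srsf3 was not lower in media and Srsf1 was not higher, so both differences were seen in the low run alone. The Srsf1 call was lost in 10 of the 12 fits without 1 library (adjusted p = 0.0108 to 0.0268), and was kept without media replicate 4 or lactate replicate 1. It was also lost with limma voom, RLE size factors, at least 10 counts in every library and only the groups compared.

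The third comparison set lactate against naïve cells. Here 47 of 68 members (69.1%) were higher and 7 (10.3%) were lower, while 33% of all tested genes were called higher and 32% lower, and the median log2 fold change was 0.63, against 0.01 over all tested genes. Without naïve replicate 4 the number lower was 4, and 9335 of 13627 tested genes were called, 4810 of them higher. The 3 comparisons share libraries in pairs, so their values are given side by side and are not independent. Srsf6 was -1.34 from naïve to media, 0.85 from media to lactate and -0.49 from naïve to lactate (adjusted p = 0.000107 for the last). Srsf2 was -0.39, 0.81 and 0.42, with an adjusted p of 0.00112 for lactate against naïve cells. That call was lost without naïve replicate 2 (0.29, adjusted p = 0.0214) or naïve replicate 3 (0.35, adjusted p = 0.0103). U2af2 was -0.59, 0.58 and -0.01, with 245, 240.2, 259 and 263 CPM in naïve cells, a difference between lactate and naïve cells that was not detected (SE 0.08, adjusted p = 0.912). Srsf7 was -0.67, 0.57 and -0.10 (adjusted p = 0.42 for the last). Snrpd3 was 0.05, 1.05 and 1.10, so that nearly all of its difference from naïve cells lay between media and lactate. Hnrnpll was 1.31, 0.97 and 2.29, and Snrpd1 was 1.54, 0.62 and 2.16. Sf3b1 was 0.06, -0.76 and -0.70 (adjusted p = 0.000306 for the last), and its difference from naïve cells was not called after the counts were corrected for GC content and length (-0.21, adjusted p = 0.171). With that correction the median of all tested genes was 0.179 for lactate against naïve cells, against 0.01 without it.

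**Figure D3:**
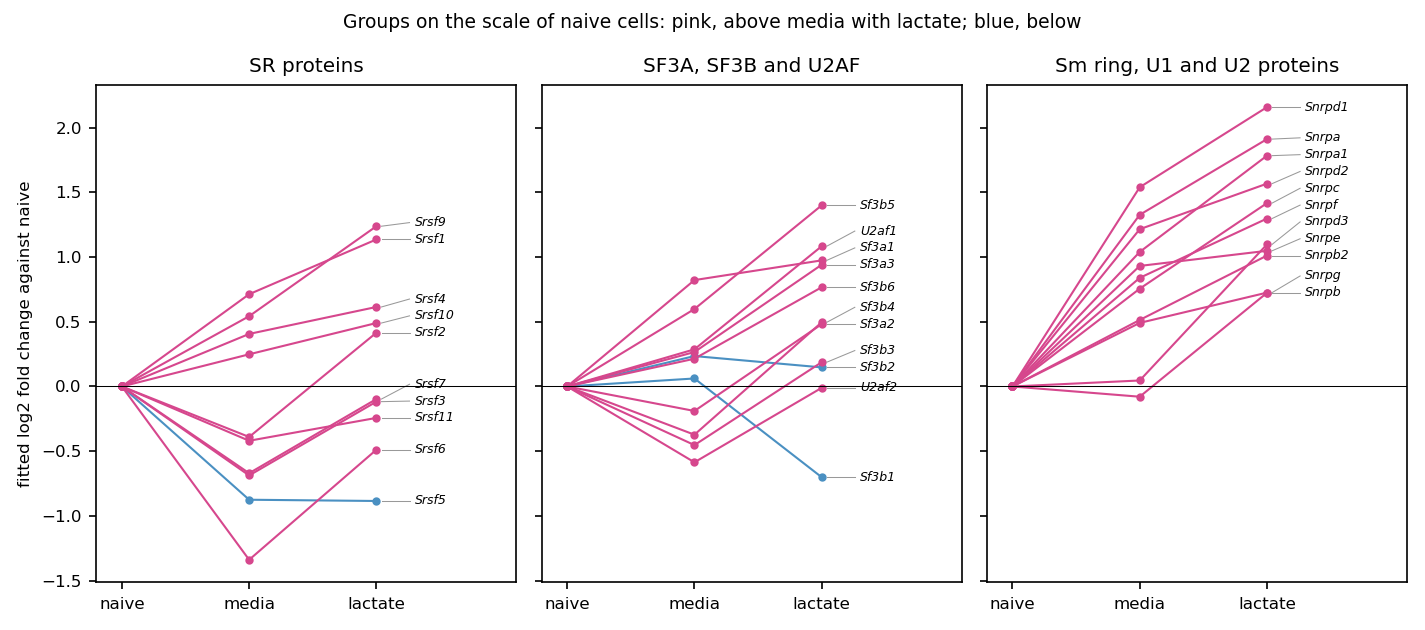
Fitted log2 fold change against naïve cells of the SR genes (left), SF3A, SF3B and U2AF genes (middle) and Sm, U1 and U2 genes (right) in media and with lactate; lines join the values of a gene, pink where lactate was above media and blue where below, and members under 5 CPM in every group are left out. Srsf6 lies lowest in media at -1.34, Snrpd1 highest with lactate at 2.16, and the line of Sf3b1 turns down to -0.70.

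Genes that work with the members were counted from 6 lists. Of the 21 other snRNP proteins, 10 were higher with lactate than in media and 1 lower, with the largest difference for Prpf31, which is needed to join the tri-snRNP (log2 fold change 1.21, adjusted p = 8.78e-05). Of the 22 genes of the Prp19 complex and later steps, 5 were higher and 1 lower, led by Prpf19, the ubiquitin ligase of that complex (1.06, adjusted p = 0.000116). The median of that list was 0.07, with 12 values positive and 10 negative. Of 16 tested genes that assemble snRNPs, 10 were higher, led by Gemin6, a subunit of the SMN complex that loads Sm rings onto RNA (1.18, adjusted p = 0.000411). Of the 9 genes of the exon junction complex, which is laid down on spliced mRNA, 6 were higher, led by Magohb (0.83, adjusted p = 0.00272). In both of these lists 0 genes were lower by edgeR, also at an unadjusted p of 0.05. These shares stand against 13.9% of all tested genes called higher and 11.1% called lower. The kinases that phosphorylate SR proteins stood apart in direction: of 8, 4 were lower and 0 were higher by edgeR (0 at an unadjusted p of 0.05 as well), and Clk1 had the largest difference (-1.04, adjusted p = 0.00126). The other 3, named after their values were seen, were Srpk1, Clk4 and Srpk2, at -0.61, -0.54 and -0.54. Of 37 tested other splicing regulators, 6 were higher and 4 lower, which is close to the shares of all tested genes. Their median was -0.05, with 15 values positive and 22 negative, and Pcbp1 had the largest difference (0.96, adjusted p = 0.000118). The 4 lower, also named after their values were seen, were Ptbp2, Rbm5, Mbnl2 and Ptbp3, at -0.91, -0.87, -0.75 and -0.61. The single lower genes of the snRNP and Prp19 lists were Snrnp25 at -0.59 and Cdc40 at -0.40.

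**Figure D4:**
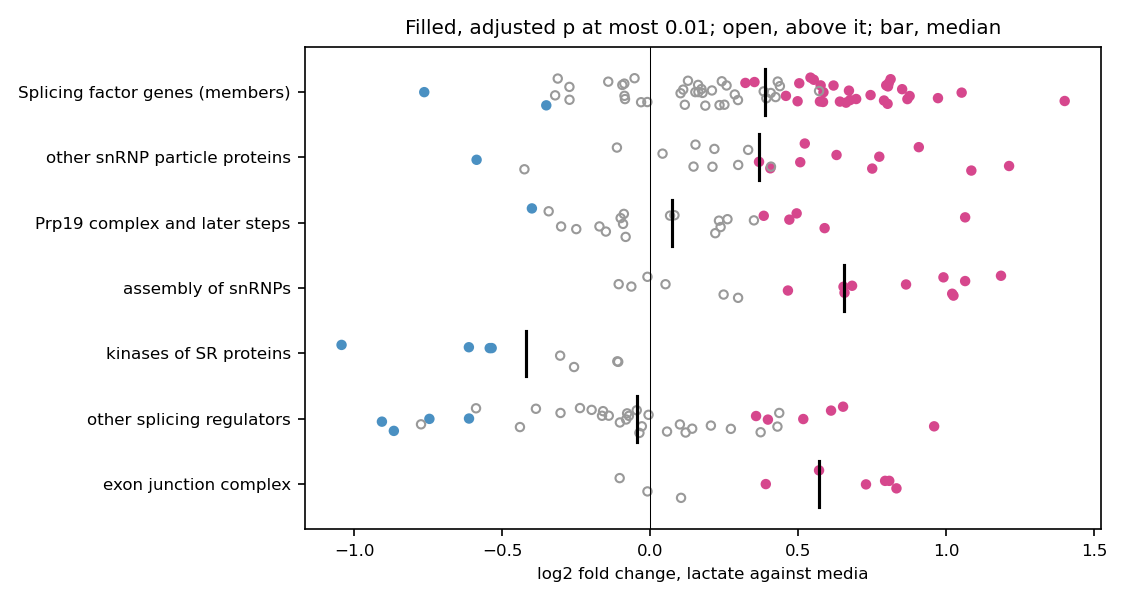
Log2 fold change, lactate against media, of the 68 members and of the genes in 6 related lists, each point a gene, filled where the adjusted p was at most 0.01 (pink higher, blue lower), with the median of each list as a bar; points are spread vertically for legibility. The median is 0.39 for the members, 0.65 for snRNP assembly and -0.42 for the SR protein kinases, all of whose 8 points lie below 0.

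The members share features that could bear on their counts. Of the 68, 26 have at least 1 near-identical stretch in another annotated gene (97% identity over 71 bases or more), and in 7 it covers over 50% of the transcript: Hnrnpa1, Hnrnpf, Lsm5, Sf3b4, Snrpert, Srsf5 and U2af1. The authors counted uniquely mapped reads, so the levels of these 7 are uncertain. Whether reads were counted by strand is not given in the sources used here, so reads of opposite-strand neighbours cannot be told apart from those of the 7 members whose exon bases overlap such a neighbour by 10% or more. These were Snrpf at 85.4% (Ccdc38), Srsf4 at 43%, Hnrnpab at 29.1%, Hnrnpf at 26.5%, Srsf2 at 25.3%, Sf3a2 at 16.1% and Snrpa at 11%. Of these 7, Snrpf, Hnrnpab, Srsf2, Sf3a2 and Snrpa are among the members called higher with lactate, and Plekhj1, the neighbour of Sf3a2, was itself called higher at 0.53 on the log2 scale (adjusted p = 0.000294). The longest transcript had a median length of 1988 bases for the 30 members called higher and 2648.5 bases for the other 38. After the counts were corrected for GC content and length, an alternative chosen after the data were seen, 33 members were higher. In that fit 13.4% of all tested genes were called higher. The median of the members was 0.46, while Sf3b1 and Hnrnpul1 missed the threshold (adjusted p = 0.0135 and 0.0858). Replicates of a group varied by little for most members, with a median coefficient of variation of 9.03% in naïve cells, 8.51% in media and 6.86% with lactate, and by most for U2af1l4 (38.6% with lactate) and, in media, for Srsf1 (30.0%).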

How the data were processed

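Poly(A) RNA of 12 libraries (4 naïve, 4 media, 4 lactate) was sequenced with a stranded kit. The authors demultiplexed with bcl2fastq 2.20.0.422, aligned to GRCm38 with STAR 2.7.5b, removed PCR duplicates, counted uniquely mapped exon reads per gene with featureCounts, and deposited raw counts, which were used here as deposited. A count without duplicates can understate the most abundant genes. Genes reaching 1 CPM in 3 or more libraries were kept (13767 of 13780). One edgeR 4.0.16 model (R 4.3.3) with TMM scaling held the 3 groups over 12 libraries, and the standard error was taken as the log2 fold change over the square root of F. DESeq2 1.42.0, limma 3.58.1 (voom), other scalings and filters, blocks and left-out libraries were alternatives. The fitting code was tested on simulated data. Libraries held 14726904 to 21478137 counts, and precision is limited by the 4 libraries a group.

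Donors were read from the description tags within each of 2 runs of library numbers, which gave 3 media and lactate pairs. The deviations of paired libraries from their group means correlated at 0.374, 0.211 and 0.553. Media 2 and lactate 2, of different donors in the same run, correlated at 0.297, above 1 of these pairs. Each pair lies within 1 run, so the correlations cannot tell a shared donor from a shared run. Libraries with the same title number correlated at 0.374, 0.297, 0.0038 and 0.553, and title numbers follow donors only for 1 and 4. Named members were, in each role, up to 3 called members with the largest difference between lactate and media at 5 CPM or more (the largest where none was called), the 3 largest rises and 3 largest falls between naïve and media, and Hnrnpll, Srsf1, Srsf2, Srsf3, Sf3b1, U2af1 and Hnrnpa1, and of each related list the gene with the largest difference. Other members given with values were picked after their values were seen. Members and lists were chosen with earlier results of these data known. Near copies were found by aligning member transcripts to GENCODE M21 transcripts, and promoter windows are from RefSeq (GRCm38.p6). Protein sequences were not used here.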

Additional observations from a re-analysis of the deposited data

Results flagged for a closer look

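In 7 of 90 groups of 4 libraries tested with Dixon's criterion (critical value 0.829) 1 library stood far from the other 3, and chance flags about 1 in 20 such groups. Snrpb, for SmB, was at 112 CPM in media replicate 2 and at 152 to 159 CPM in the other media libraries. Hnrnpm was at 229 CPM in media replicate 4, against 263 to 264 CPM in the rest. With lactate, replicate 2 was low for Hnrnpa0, at 462 CPM against 504 to 513 CPM, and high for Sf3b5, at 109.7 CPM against 97.3 to 99.4 CPM. Lactate replicate 1 was high for Srsf2, at 572 CPM against 512 to 519 CPM, and for U2af1, at 179 CPM against 152 to 156 CPM. In naïve cells, Srsf9 was at 43.6 CPM in replicate 2, against 36.6 to 37.8 CPM in the rest. None of these 6 activated libraries' values fell in the range of the other activated group.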

How the results depend on the processing

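The direction of each median and of every named member that was called held under all alternatives run. Of 2871 recomputed values of named members and role counts, 70 lost a call, 28 gained one, 45 turned sign and 49 counts moved by over 1.5 times. With the donor as a replicate block over 12 libraries, edgeR called 18 members higher and 0 lower with lactate than in media. In that fit 992 of all 13767 tested genes were called, and 625 (4.54% of all tested) were higher. Sf3b1 and Hnrnpul1 were at adjusted p = 0.0124 and 0.0363. Title number as block left 1 lower, as did the donor block over the activated libraries. With these blocks 3256 and 3769 of all 13767 tested genes were called, and 1821 and 2030 were higher. Correction for GC content and length gave 0 lower and a median of 0.46 for lactate over media, 0.40 for media over naïve (6 lower) and 0.81 for lactate over naïve (4 lower). The median of all tested genes moved as well, to 0.0108, 0.0996 and 0.179 in the same order, from -0.0016, -0.03 and 0.01. Of 13752 genes tested with the correction, 3078, 7931 and 8898 were called, and 1849, 4475 and 5171 (13.4%, 32.5% and 37.6% of all tested) were higher. Joined with the donor block, the correction gave 11 higher and 0 lower over 12 libraries, and 39 higher and 1 lower over the activated libraries. In these 2 fits 628 and 4476 of all tested genes were called, and 408 and 2545 (2.97% and 18.5% of all tested) were higher. The lactate against naïve median was 0.53 with DESeq2 and 0.53 with RLE size factors, and the lactate against media median was 0.35 with total counts alone. Between naïve cells and lactate, the median of all genes moved by -0.0953 with RLE size factors and by -0.0959 with DESeq2, and it moved less in the other comparisons and scalings. Causes were not tested.

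Leaving out 1 library gave 24 to 35 members higher and 1 to 3 lower with lactate than in media (median 0.34 to 0.39), 26 to 34 higher and 9 to 12 lower in media than in naïve cells (0.18 to 0.34), and 41 to 48 higher and 4 to 7 lower with lactate than in naïve cells (0.54 to 0.72). The single lower member came without naïve replicate 1, any media replicate, or lactate replicate 1, 2 or 3, and 3 were lower without naïve replicate 4. Of all tested genes, 9.76% to 18.7%, 25.2% to 30.8% and 29.2% to 35.3% were called higher in these fits, in the same order of comparisons. Called in either direction were 2252 to 4845, 7074 to 8357 and 8113 to 9335 genes, of 13430 to 13732 tested.

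Signs turned for values that were not called, either as reported or at the setting that turned them. Between naïve and media, Lsm7 turned from 0.02 to -0.0408 (DESeq2), -0.0425 (RLE), -0.00957 (upper quartile) and -0.0193 (at least 10 counts in every library), Sf3b1 from 0.06 to -0.00205 (DESeq2) and -0.00204 (RLE), and Snrpd3 from 0.05 to -0.0143 (DESeq2) and -0.0144 (RLE). Snrpb reached 0.0467 with the GC and length correction, and Hnrnpm went from -0.20 to 0.0629 with it, although DESeq2 called it lower (-0.26, adjusted p = 0.00379). Between lactate and media, Srsf5 turned to 0.0260 and 0.0386 with the donor block over 12 and over activated libraries, 0.00346 with only the groups compared, and 0.0727 with the GC and length correction, or 0.0686 and 0.0693 with that correction and either block. From naïve cells to lactate, Srsf3 and U2af2 were 0.168 and 0.0255 with that correction. Without 1 library, the ranges that crossed 0 were, from naïve to media, -0.0946 to 0.0925 for Lsm7, -0.0660 to 0.150 for Sf3b1, -0.0390 to 0.105 for Snrpd3, -0.00708 to 0.104 for Hnrnpd and -0.185 to 0.0270 for Snrpb. They were -0.0665 to 0.0171 for Hnrnpa1 and -0.0645 to 0.0618 for Srsf5 from media to lactate, and -0.124 to 0.0322 for U2af2 from naïve to lactate.

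Beyond the changes given with each member, the donor block alone changed no other call of a named member, and the title number block ended that of Hnrnpul1 (adjusted p = 0.0154). Joined with the GC and length correction over 12 libraries, the donor block also ended the lactate against media calls of further named members. These were Hnrnpa0, Lsm2, Lsm7, Snrpa1, Snrpb, Snrpd1, Srsf2, U2af1 and U2af2 (adjusted p = 0.0160 to 0.0453). The precision is limited by 4 libraries a group at 14726904 to 21478137 counts.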
